A study of Homo sapiens with 4 samples.

Results

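The mitotic genes described here are 58 genes of cell division, taken from a list of symbols: regulators of mitotic entry, mitotic kinases, spindle, kinesin and kinetochore genes, the spindle checkpoint, condensin, the anaphase machinery and cytokinesis. All 58 had a probe set with 1 gene symbol on the array, out of 19775 such genes, and the brightest probe set of 57 of them was among the kept probe sets, which covered 10505 genes. The exception was INCENP, whose signals lay between 26.4 and 45.2. Gene expression was measured in RCM-1, a well-differentiated colorectal cancer cell line that forms domes, on 4 arrays with 1 array for each of 0, 6, 12 and 18 h of exposure to methylthioacetic acid (MTA, 1 mM) of cells near confluency. After 6, 12 or 18 h the medium was replaced with vehicle medium (0.1% acetonitrile) until 24 h after MTA addition, so these cells had 18, 12 and 6 h without MTA, and exposure and time since removal cannot be told apart. The 0 h array served as the control here, and the sources used do not state whether its cells were also kept for 24 h. There were no replicates. Every ratio shares the 0 h array, and no test could be made.

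A cell that enters mitosis has accumulated B-type cyclins, which bind and activate the kinase CDK1. Aurora and Polo-like kinases, kinesin motors and spindle proteins then build the spindle, kinetochores attach chromosomes to it, and the spindle checkpoint holds back the anaphase-promoting complex until all are attached. Separase then cleaves cohesin, and the centralspindlin complex, anillin and the RhoA activator ECT2 divide the cell. Most of these genes are transcribed in G2 and M phase, after the genes of DNA replication, and many are controlled through CCAAT boxes and through the cell cycle genes homology region (CHR), an element bound by the MuvB complex. Epithelial cells that differentiate in the colon usually leave the cell cycle.

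The signals are MAS5 intensities, which are linear and were used with the deposited scaling. Each ratio below is the log2 ratio of the signal to that on the 0 h array, so that a value of 1 is a 2-fold higher signal. The median over all 10505 genes went from 0.11 on the 6 h array to −0.28 on the 12 h array and −0.47 on the 18 h array, and signals of most genes were thus lower at 18 h than at 0 h on this scale. At 6 h the study prints folds below the initial value for the replication genes MCM5, CDC6 and POLA2. On the same probe sets the log2 ratios here were 0.17, 0.26 and 0.04. At 12 and 18 h the printed folds and the ratios here were close. For these genes the 6 h array thus lies lower on the study's scale, on which the ratios below were not computed. Poly-A controls, added to the RNA before labelling, had mean log2 ratios of 0.20, 0.03 and −0.25 at these times, and their part in the shift was not tested. The signal ratio of 3′ to 5′ probe sets, a sign of RNA integrity, ranged from 1.44 to 1.64 for GAPDH and from 4.76 to 6.45 for ACTB. The log2 ratio at 18 h of GAPDH was −0.20, and that of ACTB was −0.55. A second kept probe set on the same arrays is the only measure of error: over 4676 genes the log2 ratios of both probe sets differed with an SD of 0.408, 0.421 and 0.479 at the 3 times. This spread does not hold the variation between cultures.

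Most mitotic genes had higher signals in MTA-treated cells than at 0 h, against the direction of the array as a whole at 12 and 18 h. The medians of the 58 were 0.46, 0.33 and 0.36 over the 3 times, which is 0.35, 0.61 and 0.83 above the median of all genes. Above 0 were 52 of the 58 at 6 h (89.7%, against 62.3% of all genes), 45 at 12 h (77.6%, against 28.4%) and 44 at 18 h (75.9%, against 21.7%). With the deposited scaling, the set thus held about the same level above the 0 h array while the rest of the array moved downwards. With each array centred on the median of all genes (median centring), the median of the set went up instead, from 0.35 to 0.61 and 0.83. The steady level thus rests on the scaling. As deposited, the signal of 40 members (69.0%) was above that at 0 h on all 3 MTA arrays, as in 18.4% of all genes. Only CDC25B, BUB3 and SPC24 were below the 0 h signal on all 3. In these bulk samples, a larger share of cells in mitosis and more of these RNAs per cell cannot be told apart.

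**Figure D1:**
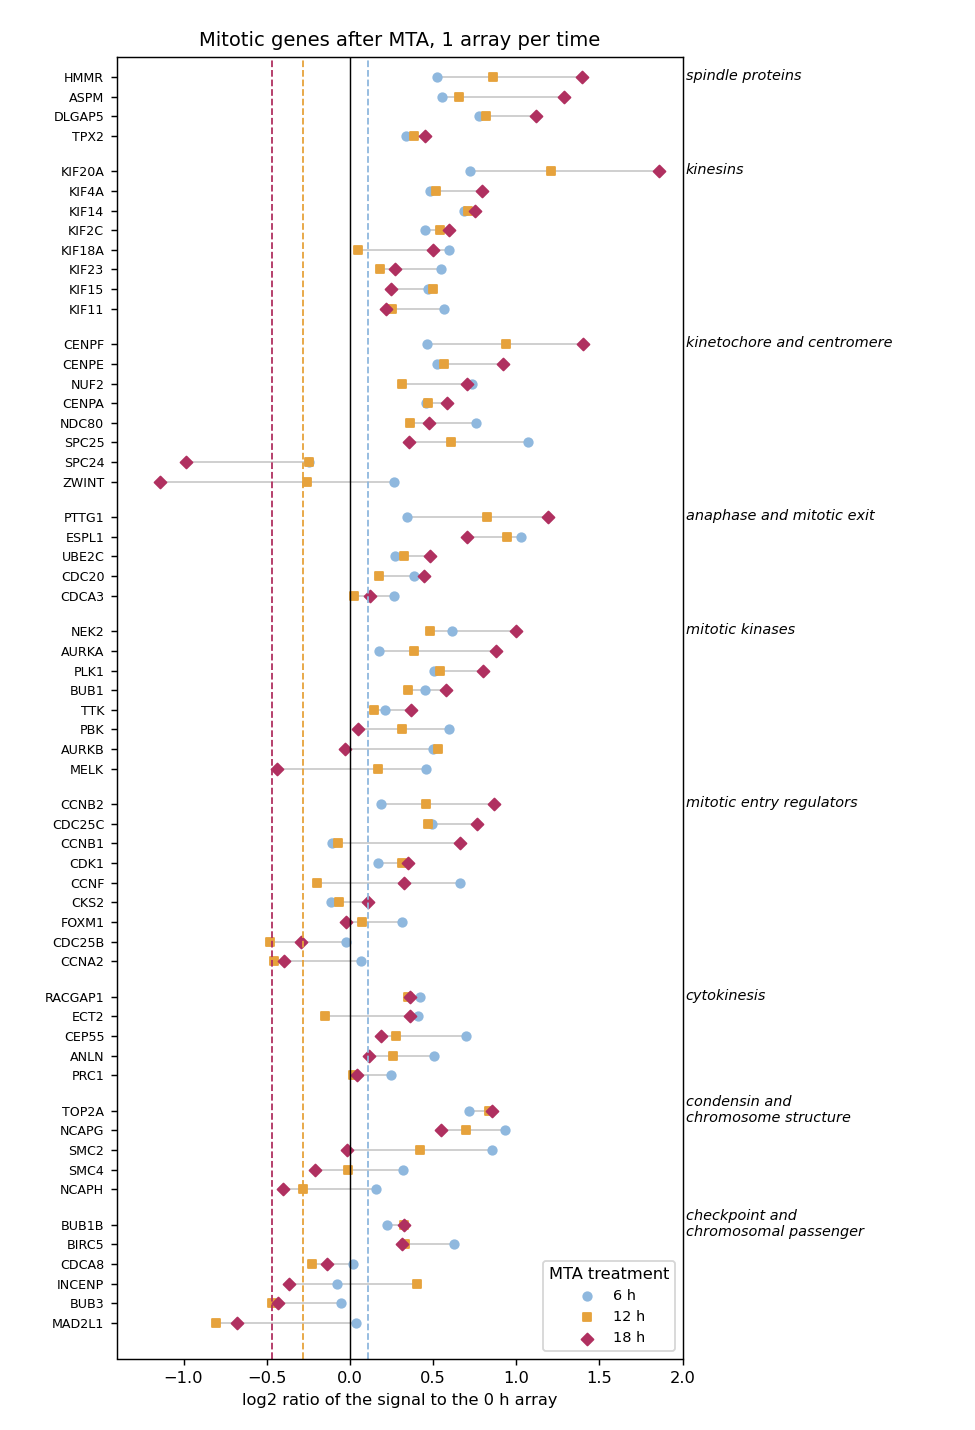
The log2 ratio of each of the 58 mitotic genes (rows, grouped by function) to the 0 h array is plotted at 6, 12 and 18 h of MTA, with dashed lines at the median of all genes at each time (0.11, −0.28 and −0.47). At 18 h the points run from −1.14 (ZWINT) to 1.86 (KIF20A), and 55 of 58 lie to the right of the median of all genes.

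Large ratios were few and built up late. At 6 h 2 members, SPC25 and ESPL1, were above 1 (3.45%, against 4.68% of all genes), and at 12 h only KIF20A was (1.72%, against 3.28%). With the deposited scaling, the set thus held no more large ratios than the array at these times. At 12 h this rests on the scaling. The share was 12.1% with median centring (against 6.07%), 13.8% with quantile normalization (against 4.98%) and 15.5% with the trimmed mean (against 6.66%). It was 12.1% relative to hybridization controls (against 5.96%) and 1.72% relative to poly-A controls (against 3.1%). At 18 h, as deposited, 7 members were above 1 (12.1%, against 3.15% of all genes): KIF20A, CENPF, HMMR, ASPM, PTTG1, DLGAP5 and NEK2. NEK2, at 1.00, lay just above this limit and CENPE, at 0.92, was the next below it. Above 1.5 there was only KIF20A (1.72%, against 1.22%). Below −1 at 18 h was ZWINT alone (1.72%, against 15.8% of all genes), with SPC24 just short of it at −0.98. With the deposited scaling, a mitotic gene 2-fold lower was thus rare on an array where such genes were common. With median centring, quantile normalization and the trimmed mean no member was below −1, against 3.47%, 3.86% and 3.07% of all genes.

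The 8 members beyond 1 at 18 h act at different steps of division. KIF20A is a kinesin of the central spindle. CENPF binds kinetochores, HMMR, ASPM and DLGAP5 bind spindle microtubules, PTTG1 is securin, the inhibitor of separase, and NEK2 is a centrosomal kinase. ZWINT is a kinetochore protein. To show the elements known to control such genes, the 130 bases before the start of each gene are given here from the RefSeq promoter table (build GRCh38.p14), 5′ to 3′ on the strand of the gene. Capitals mark CHR motifs, searched as TTTGAA and TTTAAA, and CCAAT boxes, searched as CCAAT, each on both strands (TTCAAA and ATTGG on the other strand).
KIF20A: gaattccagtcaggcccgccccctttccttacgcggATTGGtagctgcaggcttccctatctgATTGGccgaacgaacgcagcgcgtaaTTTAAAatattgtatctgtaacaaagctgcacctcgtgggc
CENPF: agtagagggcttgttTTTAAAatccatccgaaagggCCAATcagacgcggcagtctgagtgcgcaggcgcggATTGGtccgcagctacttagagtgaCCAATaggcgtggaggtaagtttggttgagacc
HMMR: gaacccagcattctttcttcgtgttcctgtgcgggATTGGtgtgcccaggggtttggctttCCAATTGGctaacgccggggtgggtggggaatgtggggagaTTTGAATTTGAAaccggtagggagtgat
ASPM: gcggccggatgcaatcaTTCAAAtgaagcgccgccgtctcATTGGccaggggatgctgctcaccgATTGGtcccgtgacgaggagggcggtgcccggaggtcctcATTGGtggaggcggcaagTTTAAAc
PTTG1: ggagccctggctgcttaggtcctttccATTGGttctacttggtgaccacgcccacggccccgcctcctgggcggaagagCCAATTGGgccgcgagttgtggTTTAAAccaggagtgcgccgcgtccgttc
DLGAP5: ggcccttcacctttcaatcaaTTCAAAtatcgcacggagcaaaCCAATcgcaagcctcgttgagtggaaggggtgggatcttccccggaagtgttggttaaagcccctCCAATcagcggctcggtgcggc
NEK2: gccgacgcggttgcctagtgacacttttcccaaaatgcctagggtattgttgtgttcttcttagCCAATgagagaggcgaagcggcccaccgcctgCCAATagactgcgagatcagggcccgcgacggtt
ZWINT: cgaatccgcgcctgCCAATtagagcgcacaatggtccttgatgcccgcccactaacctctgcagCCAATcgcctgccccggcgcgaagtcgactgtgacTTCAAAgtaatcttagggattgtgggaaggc
The stretches lie at chr5:138178982-138179111 (plus strand) for KIF20A, chr1:214603065-214603194 (plus) for CENPF, chr5:163460502-163460631 (plus) for HMMR, chr1:197146670-197146799 (minus) for ASPM, chr5:160421725-160421854 (plus) for PTTG1, chr14:55191586-55191715 (minus) for DLGAP5, chr1:211675622-211675751 (minus) for NEK2 and chr10:56361260-56361389 (minus) for ZWINT. The table lists 2 starts for PTTG1 and for ZWINT, and the first is shown. All 8 stretches hold at least 2 CCAAT boxes, and 7 hold a CHR motif, NEK2 being the one without. HMMR carries a pair of adjacent TTTGAA motifs at −28 and −22 bases from the start, and ASPM has its last motif at −7. In KIF20A the CHR motif lies at −41, in PTTG1 at −29 and in ZWINT at −31, with the CCAAT boxes before it. In HMMR and PTTG1 a pair of CCAAT boxes on opposite strands overlaps. In CENPF and DLGAP5 the CHR motif lies farther out, at −115 and −109. ZWINT, the one gene of the 8 that was lower, holds both motifs.

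Both motifs were common among all members with a promoter in the table. Of the 58 genes, 49 have one, which covers 250 bases before the start and 50 after it. FOXM1, AURKA, TTK, PBK, UBE2C, BUB3, BIRC5, TPX2 and RACGAP1 have none there. A CHR motif was present in 43 of the 49 genes (87.8%), against 27.9% of the 27305 genes of the table. With TTTGAA alone the shares were 73.5% and 18.2%, and for a CHR motif within the last 50 bases before the start 59.2% and 5.98%. A CCAAT box was present in 77.6% of the members and 39.7% of all genes, and both motifs in 65.3% and 11.2%. These are counts of letters in a window and do not show binding. Among 44 genes of DNA replication with a promoter, 4 (9.09%) held a CHR motif, 59.1% held a CCAAT box and none held both. Of 79 other mitosis genes with a promoter, 51.9% held a CHR motif, 63.3% a CCAAT box and 34.2% both, so the motifs were not particular to the members. The 6 members without a CHR motif in the window were AURKB, BUB1, CCNA2, MELK, NEK2 and SPC24, and their median log2 ratio at 18 h was −0.21, ranging from −0.98 to 1.00, against 0.45 in the 43 with the motif, which ranged from −1.14 to 1.86. At 6 h the medians were 0.46 and 0.48. The ranges overlap, and 6 genes are too few to describe a difference.

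KIF20A had signals of 163, 268, 376 and 589 at 0, 6, 12 and 18 h, which are log2 ratios of 0.72, 1.21 and 1.86. Each array was higher than the one before, and the gain at 18 h was a 3.62-fold signal. All 8 kinesins, motors that slide microtubules or carry chromosomes, were above the 0 h signal at every time, with a median of 0.55 at 18 h. KIF4A, a motor of the chromosome arms, reached 0.79, KIF14 0.75 and KIF2C, a microtubule depolymerase, 0.60 at 18 h, followed by KIF18A at 0.50, KIF23 at 0.27 and KIF15 at 0.25. KIF11, which keeps the spindle poles apart, was the lowest at 0.22, with signals of 413, 610, 493 and 480 at 0, 6, 12 and 18 h. KIF11, KIF18A and KIF23 were highest on the 6 h array, KIF15 on the 12 h array and the other 4 on the 18 h array.

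Spindle proteins had the highest median at 18 h, 1.20 over 4 genes, and all 4 were higher on each array than on the one before. HMMR had signals of 1058, 1521, 1922 and 2788 at 0, 6, 12 and 18 h. ASPM, which focuses microtubules at the spindle poles, had 404, 594, 638 and 986, and DLGAP5, which stabilises microtubules near the chromosomes, had 305, 523, 539 and 662. Their log2 ratios at 18 h were 1.40, 1.29 and 1.12. TPX2, the activator of Aurora A, stayed lower at 0.45, with signals of 1458, 1844, 1909 and 1993. HMMR and ASPM have further kept probe sets, which gave 1.33 for HMMR and 1.08 and 1.60 for ASPM, all above 1 as well.

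Kinetochore and centromere genes held the widest range, from −1.14 to 1.40 at 18 h with a median of 0.53 over 8 genes. CENPF had signals of 328, 453, 628 and 865 at 0, 6, 12 and 18 h and a log2 ratio of 1.40 at 18 h. Its second kept probe set gave only 0.67, a difference above the SD between probe sets. CENPE, the kinetochore motor, reached 0.92 and CENPA, the histone H3 variant of centromeres, 0.58. The NDC80 complex, which couples kinetochores to microtubules, has 4 subunits, and these did not move together. NUF2 was at 0.70 and NDC80 at 0.48 at 18 h. SPC25 had signals of 316, 663, 481 and 404 at 0, 6, 12 and 18 h, with its highest ratio of 1.07 at 6 h and 0.36 at 18 h. SPC24 had signals of 90.4, 76.1, 76.4 and 45.8 and was below the 0 h signal throughout. SPC24 was thus the only subunit below its 0 h signal at 18 h. ZWINT, which links the outer kinetochore to the checkpoint, had signals of 2468, 2963, 2065 and 1120.0, so that its log2 ratio went from 0.26 at 6 h to −0.26 and −1.14. It and SPC24 were the only 2 of the 8 below the median of all genes at 18 h, and both are read by 1 kept probe set.

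**Figure D2:**
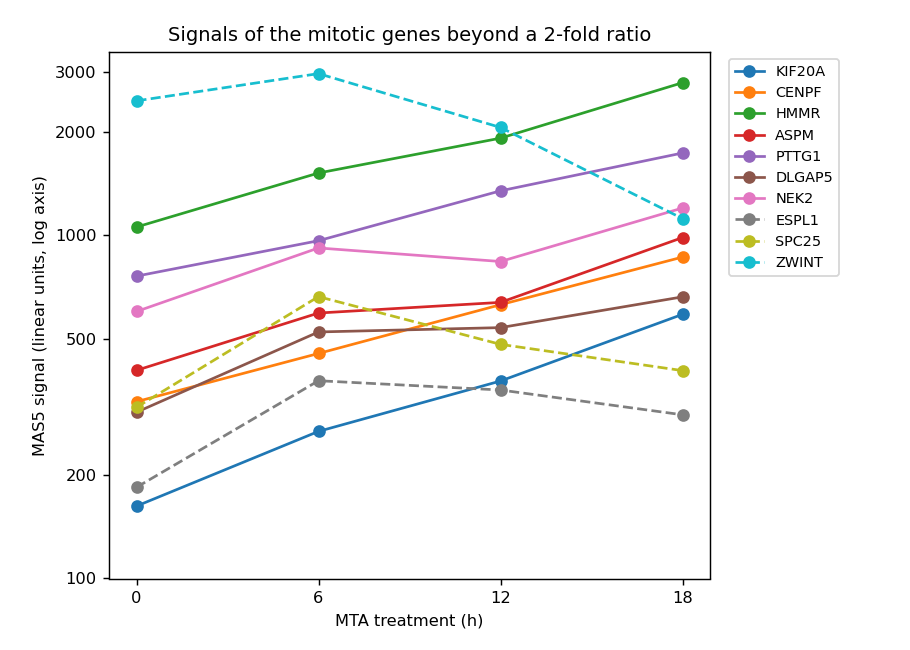
MAS5 signals (log axis) of the 10 mitotic genes whose log2 ratio was above 1 or below −1 at any time are plotted against hours of MTA, 1 array per time, with solid lines for the 7 genes above 1 at 18 h and dashed lines for the others. With the deposited scaling shown, ESPL1 and SPC25 peak at 6 h, KIF20A climbs from 163 to 589, and ZWINT drops from 2963 at 6 h to 1120.0 at 18 h.

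Among the genes of anaphase and mitotic exit, all 5 were above the 0 h signal at every time, with a median of 0.48 at 18 h. PTTG1 (securin) had signals of 761, 965, 1349 and 1739 at 0, 6, 12 and 18 h and a log2 ratio of 1.19 at 18 h. ESPL1 (separase), which securin inhibits, had 184, 377, 354 and 300.1, so that its ratio was 1.03 at 6 h and 0.70 at 18 h. With the deposited scaling, securin was thus highest on the last array and separase on the first MTA array. Relative to the median of all genes, securin was still highest at 18 h, but separase was at 0.92, 1.22 and 1.17 and so highest at 12 h. For ESPL1 the second kept probe set gave 0.60 at 6 h and 0.22 at 18 h. UBE2C, the ubiquitin-conjugating enzyme of the anaphase-promoting complex, and CDC20, its activator, were at 0.48 and 0.45 at 18 h. CDCA3, a trigger of entry into mitosis, was lowest at 0.12, with signals of 755, 907, 769 and 820.2. PTTG1, FOXM1 and CENPA are read by probe sets that the array's design marks as able to match other sequences, and PTTG1 has near-identical retrogene copies, so its signal may not be its own alone.

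Mitotic kinases had a median of 0.48 at 18 h over 8 genes. NEK2 had signals of 600.3, 920 and 840 at 0, 6 and 12 h and 1202 at 18 h, and its second kept probe set gave 1.19 at 18 h. AURKA, the Aurora kinase of the spindle poles, was at 0.17, 0.39 and 0.88, and PLK1, the Polo-like kinase, at 0.50, 0.54 and 0.80 at 6, 12 and 18 h. BUB1 was at 0.58 and TTK at 0.37 at 18 h, both checkpoint kinases. The kinases of the poles and of the checkpoint were thus highest at 18 h. AURKB, the kinase of the chromosomal passenger complex, took another course, with 0.50 and 0.53 at 6 and 12 h and −0.03 at 18 h. PBK was at 0.59, 0.32 and 0.05. MELK had signals of 1258, 1731, 1413 and 929.9 at 0, 6, 12 and 18 h and was lowest of the kinases at −0.44 at 18 h.

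Regulators of mitotic entry stayed nearer to their 0 h signals, with medians of 0.17, −0.06 and 0.32 at 6, 12 and 18 h over 9 genes. The cyclins diverged. CCNB2 (cyclin B2) had signals of 920, 1045, 1261 and 1674 at 0, 6, 12 and 18 h, and CCNB1 (cyclin B1) had 1548, 1435, 1473 and 2453, so that it was above the 0 h signal only at 18 h, at 0.66. CCNA2 (cyclin A2), which also acts in S phase, had 525, 549, 382 and 399, and was at −0.40 at 18 h. CCNF (cyclin F) was at 0.66, −0.20 and 0.32. The B-type cyclins were thus highest at 18 h and cyclin A2 was below its 0 h signal with the deposited scaling. For CCNA2 the sign depended on the scaling, as it was at 0.07 with median centring, 0.19 with quantile normalization and 0.12 with the trimmed mean. CDK1 was at 0.35 at 18 h, and its other kept probe sets gave 0.0078 and −0.09. CDC25C, the phosphatase that activates CDK1, was at 0.77 at 18 h, and CDC25B, which acts earlier, at −0.29. FOXM1, a transcription factor of G2/M genes, was at 0.31, 0.07 and −0.02, and CKS2, a subunit that binds CDK1, at 0.11 at 18 h.

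Genes of cytokinesis stayed close to their 0 h signals at 18 h, with a median of 0.19 over 5 genes and 0.42 at 6 h. All 5 were highest on the 6 h array with the deposited scaling, and all 5 on the 18 h array when arrays were centred on the median of all genes. RACGAP1, a subunit of centralspindlin, had signals of 1344, 1800.0, 1712 and 1729 at 0, 6, 12 and 18 h, and PRC1, which bundles microtubules of the midzone, had 827, 980.3, 837 and 852. CEP55, which acts in abscission, was at 0.70 at 6 h and 0.19 at 18 h. ANLN (anillin) was at 0.50 and 0.11, and ECT2, which activates RhoA, at 0.41 and 0.36. KIF20A and KIF23, kinesins of the central spindle listed above among the kinesins, were at 1.86 and 0.27 at 18 h.

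Condensin genes were highest at 6 h and the median of the group with TOP2A, 5 genes in all, went from 0.72 to 0.42 and −0.02 over the 3 times. TOP2A, the topoisomerase that untangles chromosomes, had signals of 1152, 1896, 2057 and 2086 at 0, 6, 12 and 18 h and was the only one of the 5 that was highest at 18 h, at 0.86. NCAPG was at 0.93 at 6 h and 0.55 at 18 h. SMC2 was at 0.85 and −0.02, and SMC4 at 0.32 and −0.21. NCAPH had signals of 255, 284, 210.0 and 193, and was at −0.40 at 18 h. All 4 condensin subunits were thus lower at 18 h than at 6 h with the deposited scaling, but relative to the median of all genes 3 of them (NCAPG, NCAPH and SMC4) were higher at 18 h than at 6 h and only SMC2 was lower. Second probe sets moved the sign of SMC2 (0.17) and SMC4 (0.0050) at 18 h.

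The checkpoint and chromosomal passenger genes had the lowest median at 18 h, −0.25 over 6 genes, of which 2 were above 0. MAD2L1, the checkpoint protein that binds CDC20, had signals of 2181, 2239, 1250 and 1361 at 0, 6, 12 and 18 h and was at −0.68 at 18 h. Its other kept probe sets gave −0.81 and −0.75. BUB3, which recruits BUB1 to kinetochores, was at −0.43, and its 3 other kept probe sets lay between −0.44 and −0.20. BUB1B (BUBR1) had signals of 668, 779, 837 and 839 and was the highest at 0.33. MAD2L1 and BUB3 were thus below their 0 h signals while BUB1B, BUB1 and TTK of the same checkpoint were above them. For BUB3 this depended on the scaling, as it was at 0.03 with median centring, 0.11 with quantile normalization and 0.08 with the trimmed mean. Of the passenger complex, BIRC5 (survivin) was at 0.31, CDCA8 (borealin) at −0.14 and the dim INCENP at −0.37 at 18 h.

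With the deposited scaling, most members were highest on either the 18 h or the 6 h array. The 18 h array was the highest for 26 members (44.8%), against 4.45% of all genes, and the 6 h array for another 26 (44.8%), against 53.1%. The 0 h array was the highest for 3 (5.17%), against 36.0% of all genes, and the 12 h array for 3 (against 6.38%), AURKB, INCENP and KIF15. From 6 to 12 h the signal went up in 25 members (43.1%, against 11.4% of all genes), and from 12 to 18 h in 40 (69.0%, against 23.7%). In 19 members (32.8%, against 1.8%) each array was higher than the one before. These 19 were CCNB2, CDK1, PLK1, AURKA, UBE2C, PTTG1, BUB1B, CENPA, CENPE, CENPF, KIF14, KIF20A, KIF2C, KIF4A, TPX2, HMMR, ASPM, DLGAP5 and TOP2A. Of the 8 among them with a second kept probe set, only KIF14, HMMR and TOP2A showed this order on it as well, and CDK1, AURKA, CENPF, KIF2C and ASPM did not. No member was lower on each array than on the one before. The peak depended on the scaling. With each array centred on the median of all genes, the 18 h array was the highest for 46 members (79.3%, against 27.8% of all genes) and 33 went up at every step (56.9%, against 11.9%). Relative to the hybridization controls, which are added after labelling, the 12 h array was the most frequent peak, with 22 members (37.9%, against 26.9%), ahead of the 18 h array with 19 (32.8%, against 2.92%) and the 6 h array with 15 (25.9%, against 37.3%).

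Ratios of opposite sign at 6 and 18 h were found in 12 members (20.7%, against 42.4% of all genes). Among the 14 below the 0 h signal at 18 h, 11 came above 0 when arrays were centred on the median of all genes, so their direction rests on the scaling. ZWINT, SPC24 and MAD2L1 were below the median of all genes as well. The median of the 58 genes was above 0 with each of 11 alternatives of processing (over 48 members with the stricter filter), at 0.26 to 0.46 at 6 h, 0.30 to 0.68 at 12 h and 0.34 to 0.94 at 18 h. None of these alternatives is the study's own scale, on which the 6 h array lies lower for the genes named above. The distance to the median of all genes cannot change where each array is multiplied by 1 factor, and quantile normalization, which is not of this kind, gave 0.33, 0.66 and 0.93 over the 3 times. The number above 1 at 18 h ranged more widely, from 6 with a pseudocount to 24 (41.4%) with quantile normalization (against 6.32% of all genes) or division by the trimmed mean (against 8.44%). It was 22 (37.9%) with median centring, against 7.57%, 15 (25.9%) relative to poly-A controls, against 5.05%, and 7 (12.1%) relative to hybridization controls, against 3.38%.

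**Figure D3:**
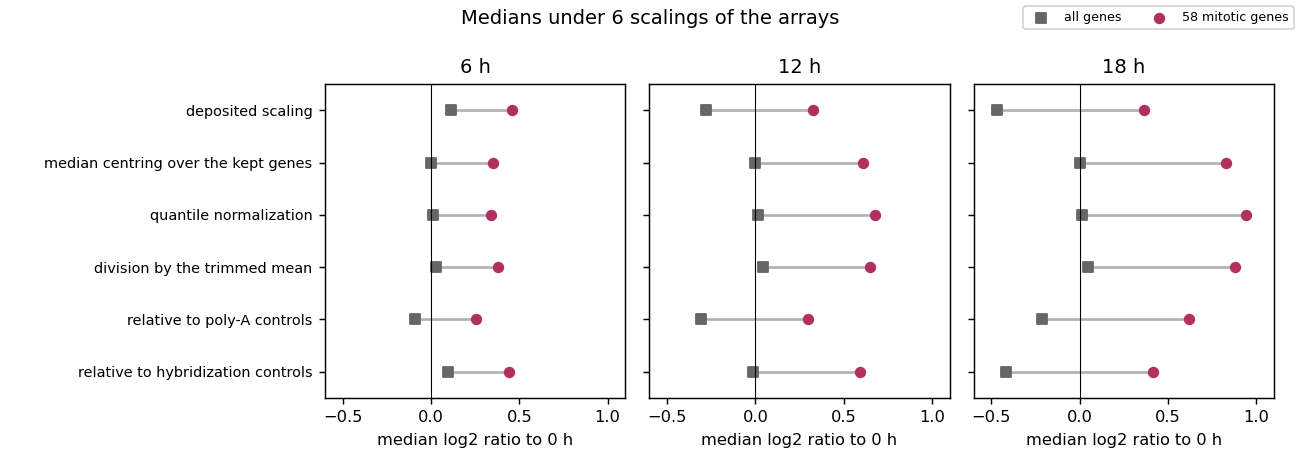
The median log2 ratio to 0 h of the 58 mitotic genes (circles) and of all genes (squares) is shown at 6, 12 and 18 h with the deposited scaling and 5 other scalings of the arrays. The circles lie to the right of the squares in every panel, by 0.33 to 0.35 at 6 h, 0.61 to 0.66 at 12 h and 0.83 to 0.93 at 18 h, and the position of both relative to 0 moves with the scaling.

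Probe sets of the same gene differed with a smaller SD in this set than over all genes. The members' median absolute difference was 0.16, 0.26 and 0.21 over the 3 times, against 0.22, 0.21 and 0.25 over all genes. By that measure the members differed more at 12 h. In the 23 members with a second kept probe set, the log2 ratios differed with an SD of 0.224, 0.352 and 0.284 over the 3 times, and both had the same sign in 21, 20 and 21 of 23. The largest difference at 18 h, 0.73, was that of CENPF. When genes were split into 4 groups by mean signal, the brightest group held 28 members with a median of 0.35 at 18 h, against −0.57 over all its genes. The next held 19 with a median of 0.48, against −0.57, the second dimmest held 8 with 0.41, against −0.44, and the dimmest held 2 with −0.09, against −0.20. The members' median was thus well above that of genes of like brightness in the 3 brighter groups. The 2 members of the dimmest group were PLK1 at 0.80 and SPC24 at −0.98, so its median describes neither gene.

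**Figure D4:**
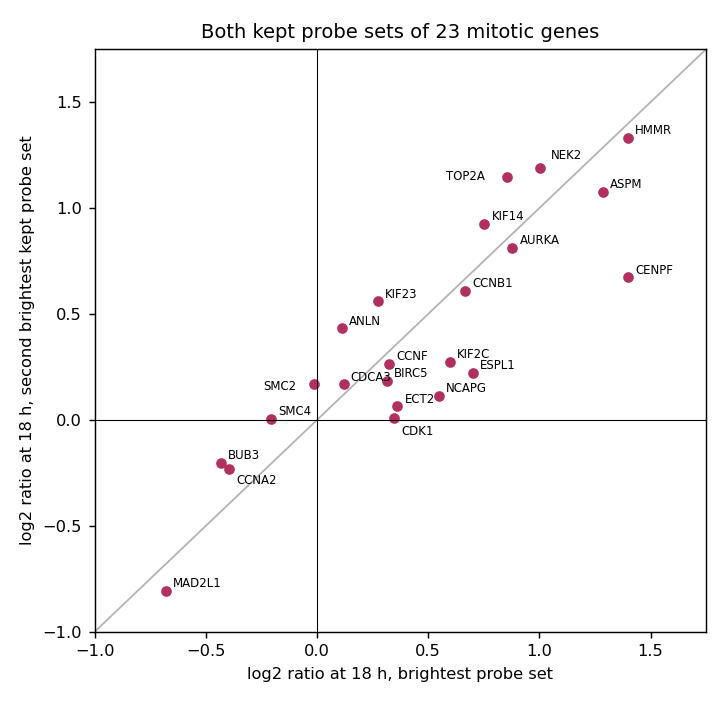
For the 23 mitotic genes with at least 2 kept probe sets, the log2 ratio at 18 h of the second brightest is plotted against that of the brightest, with the line of equal values. Points lie near the line over the range from −0.68 (MAD2L1) to 1.40 (CENPF and HMMR), and CENPF lies farthest from it.

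As a set, other genes of division did not show the same level, though single genes among them did. Of 93 further mitosis genes, among them other kinetochore, cohesin and anaphase-promoting complex genes, 89 had a kept probe set. Their medians were 0.32, −0.11 and −0.30 over the 3 times, which is 0.20, 0.17 and 0.17 above the median of all genes. At 18 h 25 of the 89 (28.1%, against 21.7% of all genes) were above 0. Above 1 were 4 (4.49%, against 3.15%), and below −1 were 7 (7.87%, against 15.8%). DEPDC1 (1.21), SGO2 (1.18), PSRC1 (1.15) and CKAP2L (1.12) were the highest, SGO2 being the protector of cohesin at centromeres. The lowest were FBXO5 (−1.44), the inhibitor of the anaphase-promoting complex, and ANAPC7 (−1.36), ANAPC10 (−1.22), DSN1 (−1.07) and CDC26 (−1.05). ANAPC7, ANAPC10 and CDC26 are subunits of that complex and DSN1 is a kinetochore subunit. FBXO5 had signals of 758, 977, 522 and 279 at 0, 6, 12 and 18 h. The median of the mitotic genes was thus above that of these relatives, with no test of the difference. High ratios were not particular to the members, as the 4 highest relatives were also above 1 at 18 h.

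The 50 genes of DNA replication, which are transcribed before the mitotic genes in each cycle, took the opposite course at 18 h. Their medians were 0.16, −0.41 and −1.002 over the 3 times. With the deposited scaling, 25 of 50 were below −1 at 18 h, against 1 of the 58 mitotic genes and 15.8% of all genes. The median of the 50 lay at this limit, so the count rests on the scaling. Relative to the median of all genes, the median of the 50 was −0.53 at 18 h. CDC45, a helicase subunit, had signals of 357, 369, 197 and 71.4 at 0, 6, 12 and 18 h. CDC6, which loads the helicase, was at −2.26 and MCM10, which activates it, at −2.16 at 18 h. RPA3, of the single-strand binding complex, was the only gene of the 50 above 0 at 18 h (2.0%, against 21.7% of all genes), at 0.23. In 41 of the 50 the 6 h array was the highest (82.0%, against 53.1% of all genes), and in none the 18 h array (against 4.45%). At 6 h most of both sets were above 0, and at 18 h the medians of both lay 1.36 apart.

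**Figure D5:**
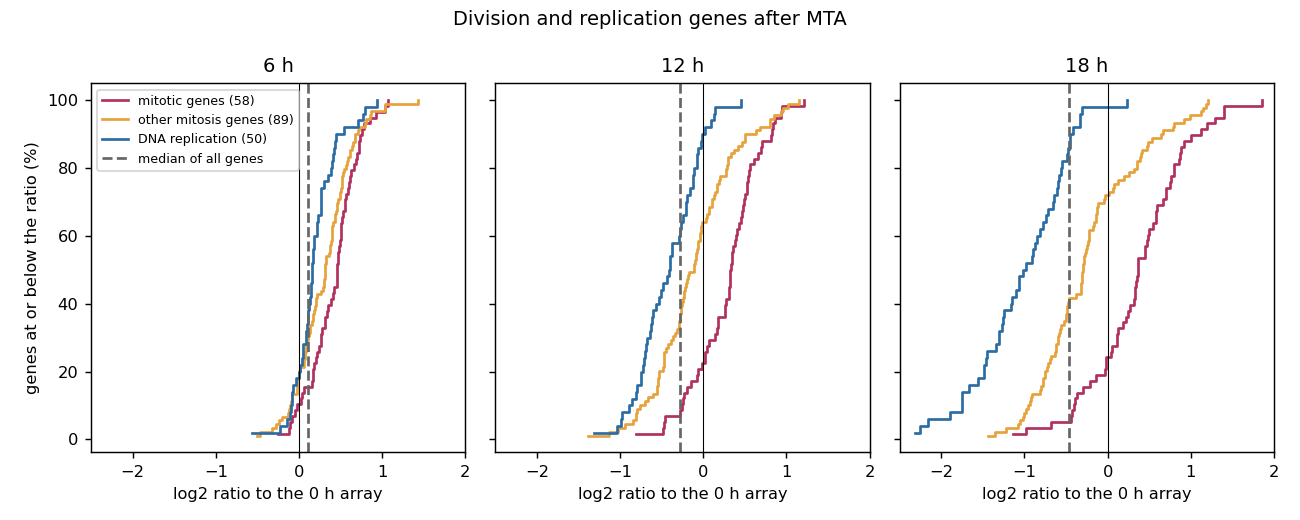
Cumulative curves give the percentage of genes at or below each log2 ratio to 0 h at 6, 12 and 18 h for the 58 mitotic genes, 89 other mitosis genes and 50 DNA replication genes, with dashed lines at the median of all genes. At 6 h the curves lie close together, and at 18 h their medians are 0.36, −0.30 and −1.002.

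Regulators that act at CHR promoters mostly had lower signals at 18 h than at 0 h, as did most genes of the array. Of 12 listed genes with a kept probe set, covering MuvB subunits, their partners and the CDK inhibitor CDKN1A, the median went from 0.05 to −0.40 and −0.77 over the 3 times, or 0.31 below the median of all genes, and 5 of the 12 were above that median. The MuvB subunits LIN9, LIN37, LIN52 and RBBP4 were at −0.81, −0.17, −0.39 and −0.86 at 18 h. LIN54, the subunit that contacts the CHR, was too dim to be kept. MYBL2 (B-MYB), the activating partner, had signals of 775, 991, 755 and 426 at 0, 6, 12 and 18 h, with −0.86 at 18 h. The repressive partners RBL1 (p107), RBL2 (p130), E2F4, E2F5 and TFDP1 were at −0.74, −0.35, −0.89, −0.84 and −1.06, and TFDP2 was at 0.08. Of these partners, RBL2 and TFDP2 lay above the median of all genes at 18 h. CDKN1A (p21) had signals of 282, 580.1, 495 and 278, so that it was at 1.04 at 6 h and −0.02 at 18 h.

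The cells carried the markers of their label, though CDX2 and GPA33 only dimly. All 11 listed colorectal epithelial markers had a kept probe set, among them EPCAM and KRT20, with a median of −0.40 at 18 h, which is 0.07 above the median of all genes. EPCAM had signals between 7798 and 10546, but CDX2 lay at 54.9 to 70.3 and GPA33 at 53.5 to 78.9. CEACAM5 was the lowest of the 11 at 18 h, at −1.70. Of the 11 markers of fibroblasts, immune cells and endothelium, only PECAM1 had a kept probe set, with signals between 28.6 and 53.0. COL1A2 lay at 1.52 to 2.29 and PTPRC at 7.90 to 12.8 on all arrays.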

How the data were processed

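Gene expression was measured on 4 Affymetrix U133 Plus 2.0 arrays. The authors deposited MAS5 signal intensities made with Affymetrix Expression Console, 1 linear value per probe set and array, and neither its version nor a scaling target is stated by the sources. Probe sets were named from the platform annotation, with symbols updated through the RefSeq gene table of GRCh38.p14. Control probe sets (62) were left out, and as many of the brightest probe sets as the study counts as detected were kept (lowest mean signal 34.0). Of the probe sets with 1 symbol, the brightest on average over the arrays (log2 scale) stood for its gene, and log2 ratios to the 0 h array were taken without a pseudocount. A member was called at a log2 ratio above 1 or below −1. The number of arrays limits the precision, and no p-value is given. The members, sub-functions, comparison lists and motifs were chosen with earlier results of these data known. Every member could be named. Signals on every array were given for those beyond 1 at any time and for the highest and lowest member of each sub-function. Of further genes, the rule took up to 5 mitosis genes beyond 1 in each direction at 18 h, the 3 lowest and the highest gene of DNA replication, and the CHR regulators. The calculation was tested on simulated data. Alternatives were median centring, quantile normalization, division by the trimmed mean (2% off each end), scaling to 12 poly-A or 9 hybridization control probe sets, no filter, a filter of 10000 probe sets, a pseudocount of 2.90 (the 20th percentile of signals), other probe sets and a limit of 1.5. The mean over kept probe sets, and the count of genes by their highest array under each alternative, were added after the values had been seen. Calculations were run in Python (3.11.15) with pandas 2.3.3 and NumPy 2.4.6, and plots were drawn in matplotlib 3.10.9.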

Additional observations from a re-analysis of the deposited data

Results flagged for a closer look

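At 6 and 18 h, 12 members had log2 ratios of opposite sign (20.7%, against 42.4% of all genes). Flagged here are several groups with such medians and, of the members beyond 1 at 18 h, only ZWINT. With 1 array per time none of these differences was tested. Among the mitotic genes these were the checkpoint and chromosomal passenger genes, with a median of −0.2535 at 18 h after 0.03 at 6 h, the condensin and chromosome structure genes, with −0.0157 after 0.72, and ZWINT, with −1.14 after 0.26. Among other lists they were the other mitosis genes with −0.2978 after 0.32, DNA replication with −1.0018 after 0.16, the MuvB and DREAM regulators with −0.7731 after 0.05 and the epithelial markers with −0.3963 after 0.0026 at 18 and 6 h. Relative to the median of all genes at 18 h, the condensin group was 0.45 higher, the checkpoint group 0.21 higher, the other mitosis genes 0.17 higher and the epithelial markers 0.07 higher. DNA replication was 0.53 lower and the MuvB and DREAM regulators 0.31 lower on that scale, and ZWINT 0.67 lower.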

How the results depend on the processing

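No paired analysis was possible because each time has 1 array and all carry the same replicate number. The cause of the differences below was not tested, beyond the scaling itself. No called value changed sign. The median of the 58 mitotic genes at 18 h was 0.94 with quantile normalization and 0.88 with division by the trimmed mean, against 0.36. With these 2 scalings, in that order, the medians at 18 h were 1.07 and 1.00 for anaphase genes, 0.26 and 0.26 for the checkpoint, 0.49 and 0.50 for condensin, 0.78 and 0.70 for cytokinesis, 1.03 and 1.06 for kinesins, 1.00 and 0.99 for mitotic kinases and 1.76 and 1.72 for spindle proteins. With the trimmed mean they were 1.04 for kinetochore genes and 0.84 for entry regulators. The number above 1 at 18 h (7 as deposited) was 22 with median centring, 24 with quantile normalization, 24 with the trimmed mean, 15 relative to poly-A controls (against 7.57%, 6.32%, 8.44% and 5.05% of all genes) and 1 with a limit of 1.5. At 12 h (1 as deposited) it was 7, 8 and 9 with the first 3 of these scalings (against 6.07%, 4.98% and 6.66%), 7 relative to hybridization controls (against 5.96%), 2 with the mean over all probe sets and 0 with a limit of 1.5. At 6 h (2 as deposited) it was 0, 1 and 0 with those 3 (against 3.59%, 2.51% and 3.76%) and 0 relative to poly-A controls (against 2.83%). It was 1 with the second probe set, 1 with the mean over kept probe sets and 0 with a limit of 1.5. The number below −1 at 18 h (1 as deposited) was 0 with those 3 (against 3.47%, 3.86% and 3.07%), with poly-A controls (against 7.47%) and with a limit of 1.5. The 18 h array was the highest for 46, 47, 47 and 43 members with median centring, quantile normalization, the trimmed mean and poly-A controls, against 26. The 6 h array (26 as deposited) was the highest for 3, 4, 3 and 7 (against 17.2%, 17.3%, 17.2% and 20.8% of all genes). Relative to hybridization controls it was the highest for 15 (against 37.3%). The 12 h array (3 as deposited) was the highest for 8, 6 and 7 with the first 3 of these scalings (against 20.1%, 21.4% and 21.4% of all genes). Relative to hybridization controls it was the most frequent peak, with 22 (against 26.9%). It was the highest for 0 with the stricter filter, 5 with the mean over all probe sets, 7 with the second probe set and 5 with the mean over kept ones. The 0 h array (3 as deposited) was the highest for 1, 1 and 1 with those 3 scalings (against 34.9%, 33.3% and 31.3% of all genes). It was the highest for 6 relative to poly-A controls (against 51.5%), 5 with the second probe set and 5 with the mean over kept probe sets. Of all summary values set against an alternative, 184 stayed within the spread between probe sets or within 1.5 times the count, and 64 did not.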
